A study of Rattus norvegicus with 24 samples.

Results

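Transcripts of the synaptic vesicle and release machinery were followed through the first 56 days after clip-compression injury of the rat spinal cord. These transcripts encode the proteins with which a nerve terminal fills, docks, fuses and retrieves its vesicles. The set was a list of 34 gene symbols, and each gene was read from the ProbeSet (a group of short probes for a single transcript) that the platform annotation pairs with that symbol alone. Where several ProbeSets qualified, the one with the highest mean over the 24 arrays was used. All 34 genes were on the array, among 14218 genes represented in the same way.

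Female Wistar rats had a laminectomy over the T6 to T8 vertebrae, and a Walsh aneurysm clip with a closing force of 35 g was then held on the cord at T7 for 1 min. Sham rats were operated on but carried no clip injury. A 5 mm length of cord around the epicenter was taken from different rats at 1, 3, 7, 14 or 56 days (the last 3 are 1, 2 and 8 weeks in the labels), with 4 rats and 4 arrays in each of these groups and 4 in the sham group. The methods speak of sham rats for every time point, whereas a single sham group of 4 arrays was analysed here, and the day on which those cords were taken was not given. The rats' age was not given, and the methods state that the rats of a time point were pre-processed apart from the rest, so that time after injury and pre-processing cannot be told apart.

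A synaptic vesicle is loaded with transmitter, held near the membrane by scaffold proteins of the active zone, and fused by SNARE proteins when calcium binds a synaptotagmin. NSF then pulls the used SNARE complexes apart, and clathrin adaptors, amphiphysin, endophilin and dynamin recover the membrane. In the spinal cord the messenger RNAs for these proteins lie mainly in the bodies of neurons of the gray matter, and the proteins are carried to terminals that may be far away. RNA from neurons whose bodies lie outside the dissected length, such as those of descending and sensory fibers, is therefore mostly outside this measurement.

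The sham tissue carried the transcripts of spinal cord, with mean log2 values of 14.46 for Nefl (neurofilament light chain), 10.93 for Rbfox3 (the neuronal nuclear protein NeuN), 14.74 for Gfap (astrocytes) and 15.35 for Mbp (myelin). All values are deposited log2 intensities, and differences between groups are log2 fold changes, so that -1 stands for a fall to a level 2 times lower. A gene was called changed when limma's adjusted p was under 0.05. The 3 control ProbeSets for a bacterial trp gene, which has no target in rat RNA, averaged 2.75 to 3.06 per array. Stx1a, Sv2c, Rab3c and Slc17a7 had group means at or under the upper end of that range in all 6 groups, so their values are a ceiling on the signal and not a measured level. Arrays of a group correlated with each other at 0.968 to 0.996 over the 14218 ProbeSets that each represent a gene. Within their groups, day 14 replicate 3 was the lowest array for 25 of the 34 members, day 7 replicate 2 the lowest for 19 and day 7 replicate 3 the highest for 29. Day 56 replicate 4 was the lowest for 24, day 1 replicate 4 the lowest for 22 and sham replicate 3 the highest for 21. Without day 7 replicate 2 the day 7 calls of Slc17a6 (-2.40, limma adjusted p = 0.0703), Vamp2 (-0.59, limma adjusted p = 0.0799) and Sv2b (-0.24, limma adjusted p = 0.148) were lost. The day 7 call of Stx1a was lost there too (-0.22, limma adjusted p = 0.0836). These calls were also lost without other arrays, as given below.

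On day 1 after injury the release machinery was reduced almost as a whole. Of the 34 members, 27 were lower than sham and 1 was higher, where 20.4% of all genes tested were lower and 28.9% higher. The median log2 fold change over the members was -2.87, against 0.01 over all genes. Among the members still above the control level on day 1, the deepest falls were those of Cplx1, Vamp1 and Sncb, at 38.7-fold, 26.3-fold and 21.0-fold, whereas Rims1 fell to that level and its fall has only a lower bound. Syngr1 was the member that rose. The other 6 were Syt4, Unc13a and the 4 members at the level of the control ProbeSets.

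Neuronal transcripts of other kinds fell over the same interval. On day 1, 19 of 20 neuron soma and axon markers were lower, with a median of -3.21. Their per-array medians ran from -3.99 to -2.55 on day 1, and those of the members ran from -3.36 to -2.29. In bulk tissue, fewer neurons and less RNA per neuron cannot be told apart.

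The course over the 5 time points was not a steady loss. On day 3 the median was only -0.78 below sham, with 10 members lower (16.7% of all genes) and 2 higher (23.7%). On day 7 it was -1.83, with 29 lower (30% of all genes) and 1 higher (23.5%). On day 14 it was -1.67, with 26 lower (16.3%) and 1 higher (15.8%), and on day 56 it was -1.66, with 27 lower (15.9%) and 0 higher (16.1%). No member that was lower at one time point was called higher at another except Syt4.

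**Figure D1:**
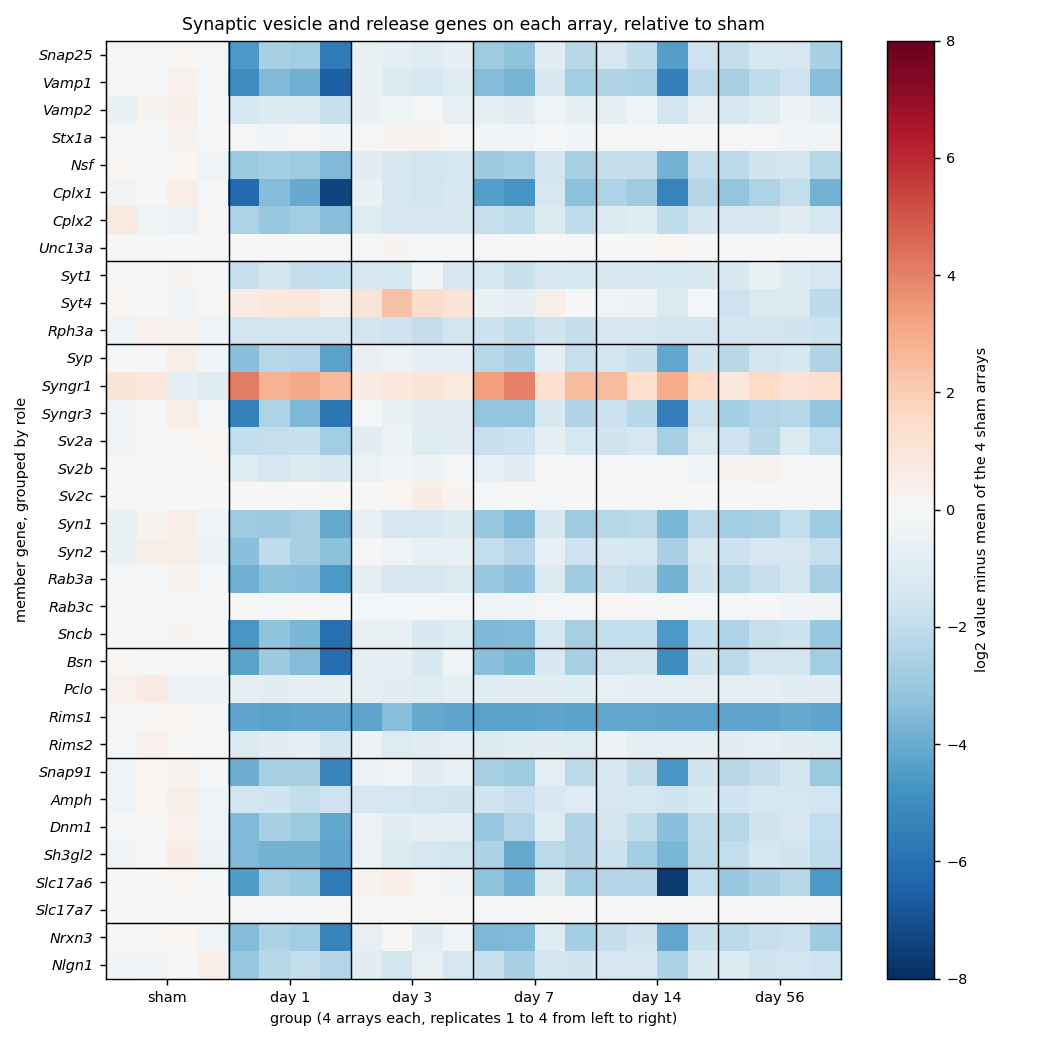
Log2 value of each of the 34 members (rows, grouped by role) on each of the 24 arrays (columns, 4 per group), as the difference from the mean of the 4 sham arrays. Most rows are blue on day 1, paler on day 3 and blue again from day 7. Syngr1 is red in the injured groups, and Syt4 lies above sham on days 1 and 3.

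The promoters of the 3 members with the largest fitted falls on day 1 are shown to compare the short elements near the start of genes that fell together. The sequences are from RefSeq (build GRCr8), run from 250 bases before to 50 bases after the annotated start, and are written 5′ to 3′ on the strand of the gene. Capitals mark the searched letters on either strand: GGGCGG (the GC box), TGACGTCA (the cAMP response element) and GGTGCTGA (the left box of RE1, the element bound by the neuronal repressor REST, as read on the reverse strand of that element). Vamp1 is at chr4:159698644-159698943 (plus strand), Cplx1 at chr14:1328823-1329122 (plus strand) and Sncb at chr17:9851684-9851983 (plus strand).
Vamp1: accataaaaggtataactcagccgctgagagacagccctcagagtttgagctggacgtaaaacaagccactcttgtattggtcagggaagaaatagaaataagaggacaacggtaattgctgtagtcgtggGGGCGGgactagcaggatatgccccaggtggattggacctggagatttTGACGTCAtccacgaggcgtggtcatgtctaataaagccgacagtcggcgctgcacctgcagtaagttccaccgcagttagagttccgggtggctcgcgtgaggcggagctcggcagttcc
Cplx1: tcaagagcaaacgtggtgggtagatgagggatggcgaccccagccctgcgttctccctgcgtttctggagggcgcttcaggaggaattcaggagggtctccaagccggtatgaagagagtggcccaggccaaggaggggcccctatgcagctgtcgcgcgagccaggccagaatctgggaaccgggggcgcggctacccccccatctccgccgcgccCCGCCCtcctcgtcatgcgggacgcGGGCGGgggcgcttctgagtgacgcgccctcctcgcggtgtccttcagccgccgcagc
Sncb: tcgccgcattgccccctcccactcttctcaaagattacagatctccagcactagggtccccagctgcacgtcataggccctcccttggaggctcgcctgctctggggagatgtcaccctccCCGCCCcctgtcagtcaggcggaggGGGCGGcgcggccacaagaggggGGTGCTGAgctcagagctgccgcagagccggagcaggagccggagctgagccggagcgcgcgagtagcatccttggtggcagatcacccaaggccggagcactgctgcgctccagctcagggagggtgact

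Promoters of 28 of the 34 members were matched by symbol, and Snap25, Syngr1, Syngr3, Rims2, Snap91 and Nrxn3 were not. The GC box was in 20 of the 28 (71.4%) and in 33.1% of all 33469 promoters. The members' promoters were richer in G and C, with a median of 65.8% against 51.7%. Among the 4542 promoters whose GC content lay within the members' middle range (61.3% to 68.7%), 76.7% held the GC box, so the members' share was close to that of promoters of like composition.

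The left box of RE1 was in 4 of the 28 (14.3%, namely Rab3c, Sncb, Syt4 and Unc13a), against 1.48% of all promoters. The right box, GGACAG or its complement, was in 6 (21.4%) against 21.7%. The left box followed after any 2 bases by the right box was in 0 of the 28 and in 0.0269% of all promoters. The cAMP response element was in 3 (10.7%, Sh3gl2, Syn1 and Vamp1) against 1.83%. Unlike the GC box, the RE1 boxes and this element were not set against promoters of like G and C content. Of the 4 members with the left box of RE1, only Sncb was lower on day 1. Rab3c was at the control level in every group, where a fall could not be seen, and Unc13a had low group means (3.57 to 3.67). The absence of a match says only that these letters are not in this window.

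The fusion machinery proper held 8 members, of which 6 were lower on day 1, 2 on day 3, 7 on day 7 and 6 on days 14 and 56. Cplx1 encodes complexin 1, which binds the assembled SNARE bundle and clamps it until calcium arrives. Its log2 values in the 4 sham rats were 12.88, 13.14, 13.67 and 12.99, and on day 1 they were 6.93, 9.72, 9.12 and 5.81. Every injured rat of day 1 was thus more than 3 units below every sham rat, while the injured rats differed from each other by nearly 4. The difference was -5.27 (SE 0.82, n = 4 per group, limma adjusted p = 2.3e-05). On day 3 the values were 12.61, 11.85, 11.72 and 11.90, each still under the lowest sham value, and the difference of -1.15 (SE 0.82) was not called. A second ProbeSet of Cplx1 was called lower on day 3 (-1.96, limma adjusted p = 0.0241). The log2 fold changes on days 7, 14 and 56 were -3.44, -3.24 and -2.84, and all 3 were called.

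Vamp1, the vesicle SNARE synaptobrevin 1, which prevails over Vamp2 in the spinal cord, had sham values of 13.88, 13.92, 14.35 and 13.92. On day 1 it read 9.06, 10.47, 10.15 and 7.50, and on day 3 13.48, 12.94, 12.61 and 13.03. The day 1 rats were far below the sham rats, and the day 3 rats were below them by a small margin with no overlap. The log2 fold change was -4.72 (SE 0.70, limma adjusted p = 1.3e-05) on day 1 and -1.002 (SE 0.70) on day 3, which was not called. From day 7 to day 56 it was called at each time point, at -2.80, -3.11 and -2.43. A second ProbeSet of Vamp1 fell by 6.58 on day 1, and the third stayed at 1.84 to 1.98 in every group, a level with no signal to lose.

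Vamp2, the other synaptobrevin, fell less. It read 9.20, 9.93, 10.15 and 9.64 in sham and 8.31, 8.63, 8.61 and 7.94 on day 1, a log2 fold change of -1.36 (SE 0.25, limma adjusted p = 0.00012). On day 3 its values, 9.05 to 9.63, overlapped those of sham, and on days 7, 14 and 56 it was called at -0.67, -0.80 and -0.86, although its highest injured values overlapped the lowest sham value. The call on day 14 was lost without replicate 3 (-0.57, limma adjusted p = 0.0905), in the fit of the 2 groups alone, and without sham replicate 2 or 3. That on day 7 (limma adjusted p = 0.0336) was lost in the fit of 2 groups (0.051) and without sham replicate 2 or 3 or day 7 replicate 1, 2 or 4 (limma adjusted p of 0.0631 to 0.101).

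Snap25, the membrane SNARE that completes the bundle, read 14.39, 14.20, 14.44 and 14.22 in sham, close to the top of the scale. It read 9.71, 11.75, 11.53 and 8.73 on day 1 and 13.71, 13.51, 13.31 and 13.54 on day 3. The day 3 rats were close to each other and all lay below sham, yet the 6-group fit, which shares its estimate of spread over all groups, did not call the difference of -0.80 (SE 0.66). It called Snap25 on day 1 (-3.88), day 7 (-2.28), day 14 (-2.34) and day 56 (-1.80). Without day 14 replicate 3 the day 14 call was lost (-1.66, limma adjusted p = 0.0511). The day 56 call (limma adjusted p = 0.045) was lost with the replicate block (0.0657), without moderation (0.0547) and when any of the 8 arrays compared was left out (limma adjusted p of 0.0517 to 0.132).

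Nsf, the ATPase that recycles SNARE complexes, was lower at all 5 time points. Its sham values of 13.09, 12.90, 13.11 and 12.69 were followed by 9.98, 10.25, 10.09 and 9.41 on day 1 and 12.07, 11.66, 11.45 and 11.52 on day 3. The 4 rats of each of these groups were close together and the groups did not overlap. The log2 fold changes were -3.01, -1.27, -2.47, -2.37 and -1.89 from day 1 to day 56. A second Nsf ProbeSet was also called lower at all 5 time points (-1.41 on day 3). The third was not called on day 3 (-0.79, limma adjusted p = 0.192).

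Cplx2, complexin 2, also fell at all 5 time points. It read 8.94, 7.91, 7.74 and 8.33 in sham and 5.79, 5.22, 5.53 and 4.81 on day 1, and its log2 fold changes were -2.89, -1.25, -1.74, -1.41 and -1.22. Stx1a, the syntaxin of neurons, sat at the level of the control ProbeSets, and its call on day 7 (-0.23, limma adjusted p = 0.0478) was a difference between values of 2.605 to 3.14. That call was lost under 11 alternative settings, in 1 of which the filter on dim ProbeSets removed the gene. The other Stx1a ProbeSet was higher on day 3 by 0.95 (limma adjusted p = 0.00088), with means of 2.47 in sham and 3.42 on day 3. Unc13a, a priming factor, was read at group means of 3.57 to 3.67 and was called at no time point.

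**Figure D2:**
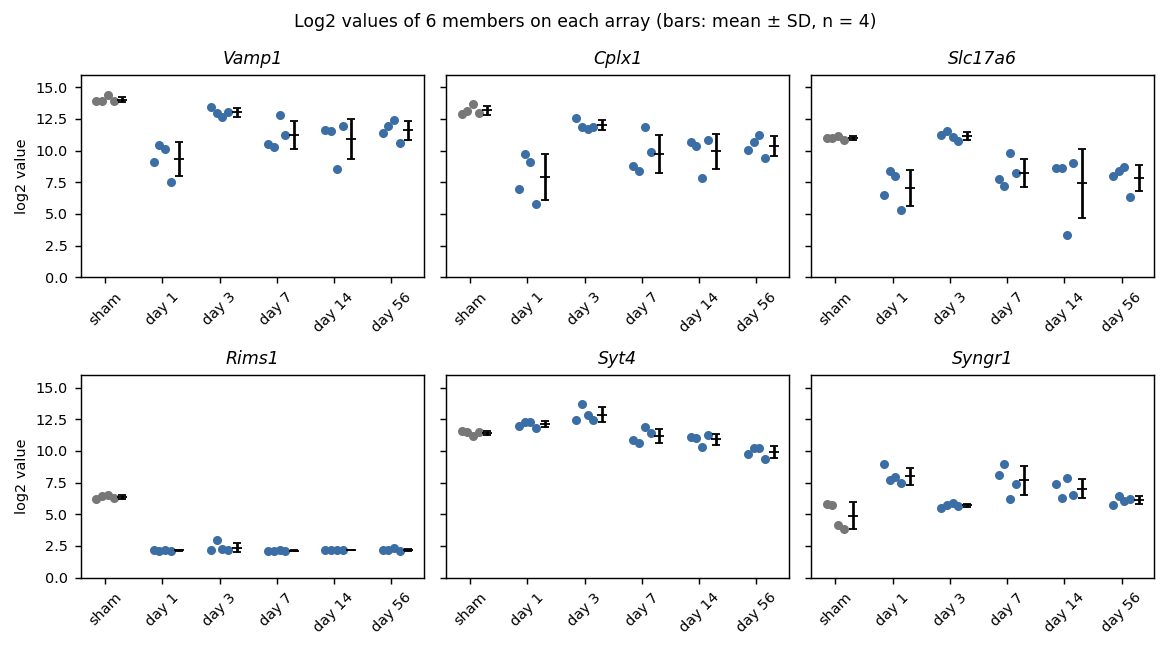
Log2 values of 6 members on each of the 4 arrays of each group (points), with the mean and SD beside them. Vamp1, Cplx1 and Slc17a6 are lowest on day 1 and near sham on day 3, with day 14 replicate 3 far below the other rats of its day, Rims1 lies at about 2 in every injured group, and Syt4 and Syngr1 lie above sham on day 1.

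The calcium sensors did not move as a group. Syt1, the synaptotagmin that triggers fast release, read 6.58, 6.77, 6.96 and 6.68 in sham and 4.88, 5.30, 4.84 and 4.79 on day 1. It was lower at all 5 time points, by -1.79, -1.09, -1.48, -1.30 and -1.07, and no injured rat reached the lowest sham value. Rph3a, rabphilin, a Rab3 effector with the same kind of calcium-binding domains, was also lower throughout, at -1.50, -1.65, -1.80, -1.41 and -1.57. Its 20 injured values lay between 3.75 and 4.48, and its 4 sham values were 5.44, 6.15, 6.10 and 5.48.

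Syt4 is an unusual synaptotagmin that is found on dense-core vesicles and is known as an activity-induced gene. It read 11.54, 11.46, 11.16 and 11.48 in sham, 11.996, 12.24, 12.31 and 11.82 on day 1, and 12.45, 13.73, 12.82 and 12.43 on day 3. All 8 of these injured rats were above all 4 sham rats. The difference was 0.68 (SE 0.30, limma adjusted p = 0.0768) on day 1, which was not called, and 1.44 (SE 0.30, limma adjusted p = 0.00077) on day 3, which was.

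The later values of Syt4 went the other way. They were 10.87, 10.63, 11.89 and 11.40 on day 7 and 11.08, 10.998, 10.27 and 11.24 on day 14, both overlapping sham, and 9.79, 10.26, 10.26 and 9.33 on day 56, all below sham. The day 56 difference was -1.50 (limma adjusted p = 0.00072), and the step from day 1 to day 56 was -2.18. Its second ProbeSet was called in the same directions on day 3 (1.125) and day 56 (-1.39), and it was also called on day 1 (0.71) and day 14 (-0.56). Among the 20 neuron markers, Gap43, a growth-cone protein, was likewise called higher on day 1 (0.76) and day 3 (1.72), while the other 19 were lower on day 1.

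Vesicle membrane and vesicle-bound proteins made up 11 members, of which 8 were lower and 1 higher on day 1. Sncb, beta-synuclein, read 11.97, 11.85, 12.18 and 11.90 in sham and 7.30, 8.74, 8.34 and 5.94 on day 1. It then read 11.39, 11.35, 10.74 and 10.97 on day 3 and 8.39, 8.47, 10.59 and 9.31 on day 7. No rat of these 3 injured groups overlapped sham, and the day 3 rats were the closest to it, with day 7 replicate 3 next. The log2 fold changes were -4.39 (SE 0.62), -0.86, -2.78, -2.63 and -2.26, called on all days but day 3. A second Sncb ProbeSet was called lower on day 3 as well (-1.51, limma adjusted p = 0.00178).

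Syngr1 and Syngr3 encode synaptogyrins, which are 4-pass vesicle membrane proteins. Syngr3 followed the rest, from 8.61, 8.88, 9.37 and 8.74 in sham to 3.49, 6.42, 5.32 and 3.14 on day 1, a log2 fold change of -4.31 (SE 0.74). Syngr1 went the other way, from 5.84, 5.72, 4.14 and 3.82 in sham to 8.95, 7.67, 7.94 and 7.44 on day 1. Every day 1 rat exceeded every sham rat, and the sham rats themselves were split into a higher and a lower pair. The difference for Syngr1 was 3.12 (SE 0.53, limma adjusted p = 5.6e-05) on day 1, 0.81 on day 3, where the values overlapped and it was not called, 2.79 on day 7, 2.11 on day 14 and 1.23 on day 56, where it was not called. A second Syngr1 ProbeSet had group means of 2.86 to 3.06, at the control level, and showed no change, so that the rise of Syngr1 rests on 1 ProbeSet.

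Syp, synaptophysin, the most abundant vesicle membrane protein, read 10.34, 10.43, 10.97 and 10.29 in sham and 7.18, 8.21, 8.14 and 6.24 on day 1 (-3.07, SE 0.52). Syn1 and Syn2, the synapsins that tether vesicles to actin, were lower by -3.13 and -2.84 on day 1, by -2.69 and -1.64 on day 7 and by -2.57 and -1.56 on day 56. Rab3a, the vesicle GTPase, read 12.61, 12.69, 13.06 and 12.65 in sham and 8.90, 9.49, 9.42 and 8.18 on day 1 (-3.76, SE 0.46). These 4 were called lower on every day but day 3, read from the ProbeSets used. Other ProbeSets of Syn1 (-1.32, limma adjusted p = 0.0421) and Syn2 (-2.82, limma adjusted p = 1.9e-05) were called lower on day 3. A further Syn2 ProbeSet (-0.85) and a second one of Rab3a (-1.39) were not.

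The SV2 glycoproteins, which modulate release, showed how much a value depends on the ProbeSet. Sv2a was lower by -2.09 on day 1 and by -1.75 on day 56. Sv2b, read from its brightest ProbeSet, moved from a mean of 14.37 in sham to 13.19 on day 1 and 14.50 on day 56, close to the highest value on any array (16.1). A second Sv2b ProbeSet had means of 10.05 in sham, 2.88 on day 1, 7.32 on day 3 and 9.05 on day 56, a log2 fold change of -7.17 on day 1 (limma adjusted p = 2.4e-06). On day 3 the second ProbeSet was called lower (-2.74, limma adjusted p = 0.0248) and the brightest was not (-0.31). Both called Sv2b lower on day 1 and not on day 56, but they differed by about 6 units in the size of the fall. The day 7 call of the brightest (-0.40, limma adjusted p = 0.0371) was lost in the fit of 2 groups (0.139) and with the replicate block (0.0508). It was also lost without day 7 replicate 1 or 2 or any sham replicate (limma adjusted p of 0.0542 to 0.148). Sv2c was at the control level, and its call on day 3 (0.25) was a difference between group means of 2.15 and 2.40. Rab3c, also at that level, was called lower on day 7 by -0.20.

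All 4 active zone scaffolds were lower on days 1, 7, 14 and 56. Bsn, bassoon, the giant scaffold of the active zone, read 9.05, 8.84, 8.83 and 8.90 in sham, 4.63, 5.98, 5.42 and 2.78 on day 1, and 8.16, 8.10, 7.70 and 8.55 on day 3. It was reduced by -4.20 (SE 0.72) on day 1 and read -0.78 on day 3, which was not called. Its day 14 values were 7.39, 7.46, 3.95 and 7.31, and without replicate 3 the day 14 difference moved from -2.37 to -1.51 and lost its call (limma adjusted p = 0.0768), as it did in the fit of 2 groups (0.0678). The day 56 call (-1.98, limma adjusted p = 0.0446) was lost with the replicate block (0.0664), without moderation (0.0542) and when any of the 8 arrays compared was left out (limma adjusted p of 0.0521 to 0.128).

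Rims1, the scaffold that links vesicles to calcium channels, had a course of its own. It read 6.22, 6.44, 6.54 and 6.25 in sham. After injury it was at 2.10 to 2.16 on day 1, 2.15 to 2.93 on day 3, 2.07 to 2.17 on day 7, 2.16 to 2.19 on day 14 and 2.13 to 2.31 on day 56. All 20 injured rats were at or under the level of the control ProbeSets, so the log2 fold changes of -4.23, -3.99, -4.25, -4.19 and -4.17 show a signal that was lost and bound the fall from one side only. No step between days was called for Rims1.

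Rims2, its paralogue, stayed measurable, at group means of 6.09 in sham and 5.01 on day 1, and was lower at all 5 time points by -1.08, -0.78, -0.99, -0.66 and -0.87. Pclo, piccolo, read 4.005, 4.30, 3.18 and 3.20 in sham and 2.67 to 3.00 in all injured rats, and was called lower at each time point by -0.75 to -0.93 with every injured mean at the control level.

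The endocytic members fell together on day 1, with 4 of 4 lower. Snap91, the neuronal clathrin adaptor AP180, read 11.75, 12.20, 12.35 and 11.90 in sham and 8.15, 9.37, 9.36 and 6.77 on day 1 (-3.64, SE 0.65). Its day 56 call (-2.15) was lost without day 56 replicate 4 (limma adjusted p = 0.0584). Sh3gl2, endophilin A1, read 8.67, 9.06, 9.53 and 8.502 in sham and 5.43, 5.13, 5.16 and 4.73 on day 1 (-3.83, SE 0.40), and was lower at all 5 time points. Its day 3 values overlapped sham, and the day 3 call (-1.08, limma adjusted p = 0.0418) was lost with the replicate block (0.0529) and without sham replicate 1, 2 or 3 or day 3 replicate 2, 3 or 4 (limma adjusted p of 0.0505 to 0.125). Dnm1, the dynamin of neurons, fell by 3.32 on the log2 scale on day 1. Amph, amphiphysin, had a flat course, with log2 fold changes of -1.68, -1.48, -1.44, -1.36 and -1.46.

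Of the vesicular glutamate transporters, Slc17a6 (VGLUT2) was measured and Slc17a7 (VGLUT1), at 2.31 to 2.44 on every array, was not above the control level. Slc17a6 is the transporter of most excitatory neurons whose bodies lie in the spinal cord. Its values were 10.96, 10.999, 11.17 and 10.83 in sham, 6.49, 8.36, 8.00 and 5.31 on day 1, and 11.26, 11.55, 11.09 and 10.74 on day 3. The day 1 rats were all below sham and the day 3 rats overlapped it. The log2 fold change was -3.95 (SE 0.97, limma adjusted p = 0.002) on day 1 and 0.17 (SE 0.97) on day 3.

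Later values of Slc17a6 were 7.74, 7.17, 9.81 and 8.198 on day 7, 8.64, 8.65, 3.35 and 9.05 on day 14, and 7.96, 8.40, 8.68 and 6.37 on day 56. All 12 of these rats were below sham. The log2 fold changes were -2.76, -3.57 and -3.13, and without day 14 replicate 3, which was over 5 units below the other rats of its day, the day 14 value was -2.21 and was still called. The day 14 call was lost in the fit of 2 groups (limma adjusted p = 0.0796), and the day 56 call without day 56 replicate 4 (limma adjusted p = 0.0701). The day 7 call (limma adjusted p = 0.0273) was lost without sham replicate 1 or 3 or day 7 replicate 1 or 2 (limma adjusted p of 0.0534 to 0.0703).

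The adhesion pair fell as well. Nrxn3, a presynaptic neurexin, read 10.55, 10.61, 10.72 and 10.29 in sham, 7.09, 8.04, 7.75 and 5.17 on day 1, and 9.91, 10.64, 9.70 and 10.18 on day 3 (-3.53 and -0.44). Nlgn1, its postsynaptic partner neuroligin 1, was lower at all 5 time points, at -2.39, -1.09, -1.86, -1.63 and -1.46.

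Direct contrasts between days, taken in the same fit, bear on whether the day 3 values differed from those around them. From day 1 to day 3, 23 members were higher (17.1% of all genes) and 1, Syngr1, was lower (18.3%). Cplx1 and Slc17a6 were each higher by 4.12, Vamp1 by 3.72 and Syngr3 by 3.70. From day 3 to day 7, 13 members were lower (17.1%) and Syngr1 alone was higher (12.8%). Slc17a6 fell by 2.93, Cplx1 by 2.29 and Nrxn3 by 2.28. The count of 14 called between days 3 and 7 fell to 7 without day 7 replicate 1 and to 7 without day 7 replicate 2, to 8 without day 3 replicate 1 and to 9 without day 3 replicate 2, and it was 20 without day 7 replicate 3.

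In total, 10 of the 34 members were called in all 3 steps (lower on day 1, higher on day 3 than on day 1, and lower on day 7 than on day 3), as were 4.73% of all genes. They were Nsf, Cplx1, Syn1, Syn2, Rab3a, Sncb, Dnm1, Sh3gl2, Slc17a6 and Nrxn3. The number depends on single arrays: it was 4 without day 7 replicate 1, without day 7 replicate 2 or without day 3 replicate 1, 6 without day 3 replicate 2, and 17 without day 7 replicate 3.

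A different set of 10 members was lower than sham at all 5 time points, as were 6.15% of all genes. These were Nsf, Cplx2, Syt1, Rph3a, Pclo, Rims1, Rims2, Amph, Sh3gl2 and Nlgn1, and Nsf and Sh3gl2 belong to both sets. The place of Nsf among them depends on the ProbeSet, as another was not called on day 3. Amph, Rph3a, Pclo, Rims1 and Rims2 showed no called step between day 1 and day 3.

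**Figure D3:**
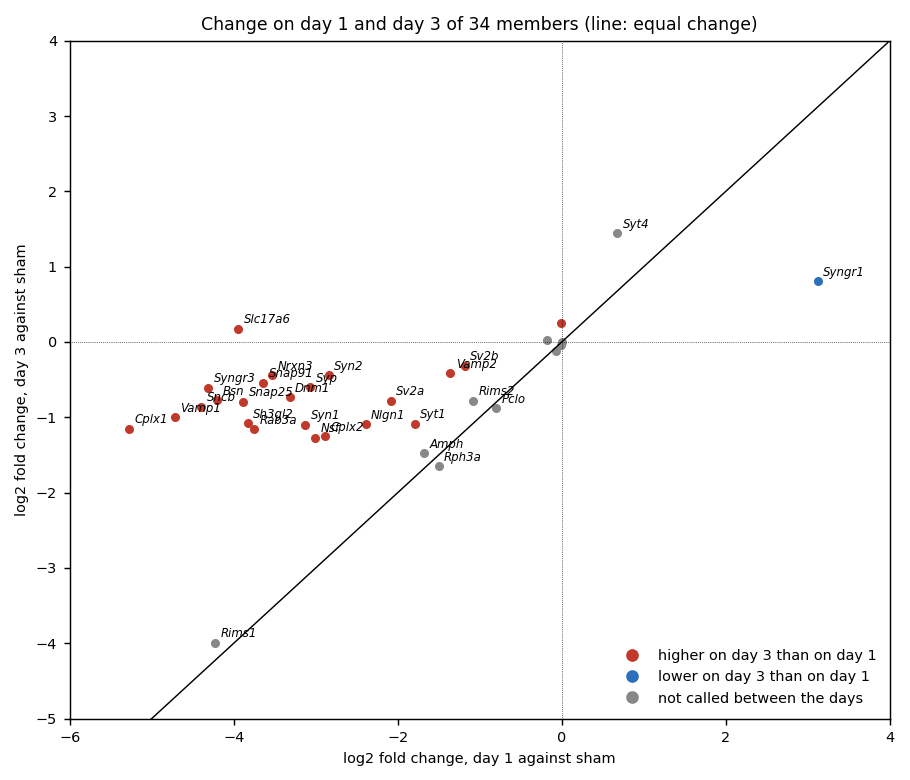
Log2 fold change against sham on day 1 (x axis) and on day 3 (y axis) for the 34 members, with the line of equal change. Red points, 23 members called higher on day 3 than on day 1, lie above the line, Syngr1 (blue) lies below it, and Amph, Rph3a and Rims1 lie near it.

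How many members were below sham on day 3 depends on the spread and on the ProbeSets used. The 6-group fit called 10 lower and 2 higher, and a fit of the day 3 and sham arrays alone called 22 lower and 1 higher. All genes called were 40.4% in the 6-group fit and 37.7% in the fit of 2 groups. In the fit of these 2 groups Snap25 (adjusted p = 0.00072), Vamp1 (adjusted p = 0.00583) and Cplx1 (adjusted p = 0.009) were called by limma at the same log2 fold changes as above. With the mean of a gene's ProbeSets, the 6-group fit called 15 members lower and 3 higher on day 3, where 41.1% of all genes were called.

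The list of neuron soma and axon markers and that of microglia and macrophage markers also lay closer to sham on day 3 than on day 1 and on day 7. Per-array medians of the neuron markers were -1.16 to -0.53 on day 3, against -3.99 to -2.55 on day 1 and -2.96 to -0.90 on day 7. Those of the 13 microglia and macrophage markers were 0.91 to 1.43 on day 3, against 3.04 to 3.43 on day 1 and 2.51 to 3.30 on day 7. Motor neuron markers differed less between these days, with mean per-array medians of -2.30 on day 1, -1.91 on day 3 and -2.32 on day 7. Inhibitory neuron markers had -2.10, -0.24 and -0.53. Fibroblast markers went below sham, with 5 of 8 lower on day 3 and per-array medians of -3.52 to -0.06, against 0.81 to 3.07 on day 1 and 2.16 to 4.35 on day 7. The mean per-array median of the endothelial markers was 0.07 on day 1 and 0.42 on day 3, and that of the red cell markers 0.90 and 1.15. That of the neutrophil markers was 0.15 on day 1, 0.19 on day 3 and -0.04 on day 7. S100a9, of that list, had means of 11.02 on day 1, 12.65 on day 3 and 4.85 on day 7. S100a8, of the same list, differed from sham by 4.23, 6.45 and -0.17 on days 1, 3 and 7. The part of these lists in the members' day 3 values was not tested.

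After day 7 there was little further movement. From day 7 to day 14, 0 members were lower (6.18% of all genes) and 3 were higher (21.8%), which were Rph3a (0.39), Rab3c (0.20) and Slc17a7 (0.08). The last 2 of these were at the control level, and 4 members had an unadjusted p under 0.05. From day 14 to day 56 limma called 0 members lower (0.148%) and 0 higher (0.19%), with 2 members at an unadjusted p under 0.05 and 0 called by the linear model without moderation. From day 1 to day 56, 14 members were higher (11.1%) and 2, Syt4 and Syngr1, were lower (21.2%). Sh3gl2 was higher by 2.07, Cplx1 by 2.44 and Cplx2 by 1.67 in that span, and 10 members were called without day 56 replicate 3 and 9 without day 1 replicate 4, in place of 16.

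Day 7 replicate 3 and day 14 replicate 3 stood apart for members and neuron markers alike. Per-array medians over the members were -1.89, -2.35, -1.02 and -1.86 on day 7 and -1.33, -1.38, -2.64 and -1.50 on day 14. Those of the neuron markers were -2.80, -2.96, -0.90 and -2.31 on day 7 and -1.61, -1.85, -4.03 and -1.64 on day 14. Without day 14 replicate 3, 23 members were lower and 1 higher than sham on day 14, and the calls lost were those of Snap25, Vamp2 and Bsn. Without day 7 replicate 3, 28 were lower and 1 higher on day 7. Without day 56 replicate 4, 23 were lower than sham on day 56, in place of 27.

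**Figure D4:**
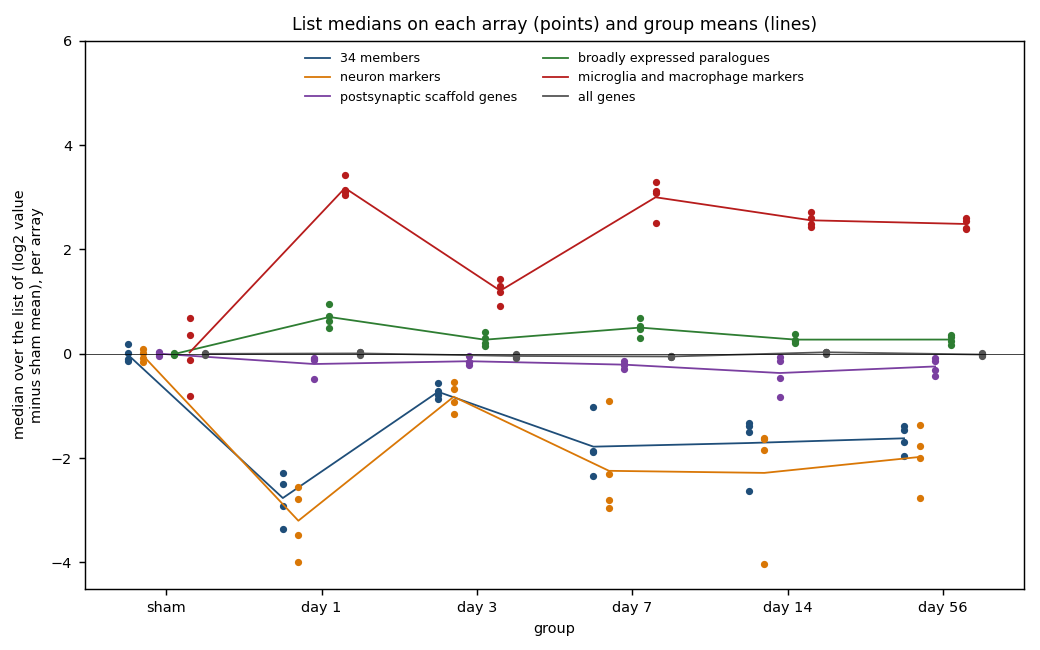
Median over each list of the log2 difference from the sham mean, for each array (points) and as the group mean (lines), over sham and the 5 time points. The members and the neuron markers move together through -2.77 and -3.20 on day 1 and -0.73 and -0.82 on day 3, while the broadly expressed paralogues and the microglia and macrophage markers lie above 0 in the injured groups.

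Members of the same gene family were compared with each other as differences of log2 change within each array, by an exact two-sided permutation test of 4 injured against 4 sham arrays. Its smallest possible p is 0.0286, and 0.0408 after Benjamini-Hochberg adjustment over 12 pairs and 5 time points. In all, 42 of the 60 differences reached it. Of these, 16 came from the 20 tests in which 1 gene was at the control level in every group. Among the other 8 pairs 26 of 40 differences reached it, 6 on day 1, 3 on day 3, 6 on day 7, 5 on day 14 and 6 on day 56.

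The widest separation was that of the synaptogyrins. Syngr1 minus Syngr3 was 7.43 (SE 1.11) on day 1, 5.26 on day 7, 4.90 on day 14 and 3.86 on day 56, each at the smallest p, and 1.41 on day 3, which missed it (exact adjusted p = 0.127). Vamp1 fell more than Vamp2 on days 1, 7, 14 and 56, by -3.36 (SE 0.53), -2.13, -2.31 and -1.57. Syt1 minus Syt4 was -2.47 on day 1, -2.53 on day 3 and -1.26 on day 7. On day 56, when both synaptotagmins were below sham, it was 0.43 (SE 0.22, exact adjusted p = 0.127).

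Rims1 minus Rims2 lay between -3.15 and -3.53 at all 5 time points, with Rims1 at the control level after injury. Read from the ProbeSets used, Syn1 fell more than Syn2 on days 3, 7, 14 and 56, by -0.65 to -1.05. On day 1 the difference was -0.29 (SE 0.34). Another Syn2 ProbeSet read -4.37, -2.82, -3.85, -3.70 and -3.78 at the 5 time points. Syn1 read -3.13, -1.10, -2.69, -2.53 and -2.57, so the direction of this difference depends on the ProbeSet. The 2 complexins differed by -1.62 (SE 0.52) on day 56. On day 1 Cplx1 minus Cplx2 was -2.38 with an SE of 0.98, and exact adjusted p = 0.07. Bsn minus Pclo was -3.40 (SE 0.76) on day 1 and was called on that day alone, with Pclo at the control level after injury.

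Sv2a minus Sv2b, with Sv2b read from its brightest ProbeSet, was called on days 1, 7, 14 and 56 (-0.91, -1.04, -1.51 and -1.88). The second Sv2b ProbeSet read -7.17, -4.31 and -3.05 on days 1, 7 and 14, where Sv2a read -2.09, -1.44 and -1.69. The direction of the difference on those days thus depends on the ProbeSet. On day 56 the second ProbeSet read -0.999 and Sv2a -1.75, the same direction as with the brightest. The pairs of Sv2a with Sv2c and of Rab3a with Rab3c passed at all 5 time points, Slc17a6 with Slc17a7 on 4 and Sv2b with Sv2c on 2. In these last 4 pairs the second gene was at the control level, where a fall could not be seen.

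**Figure D5:**
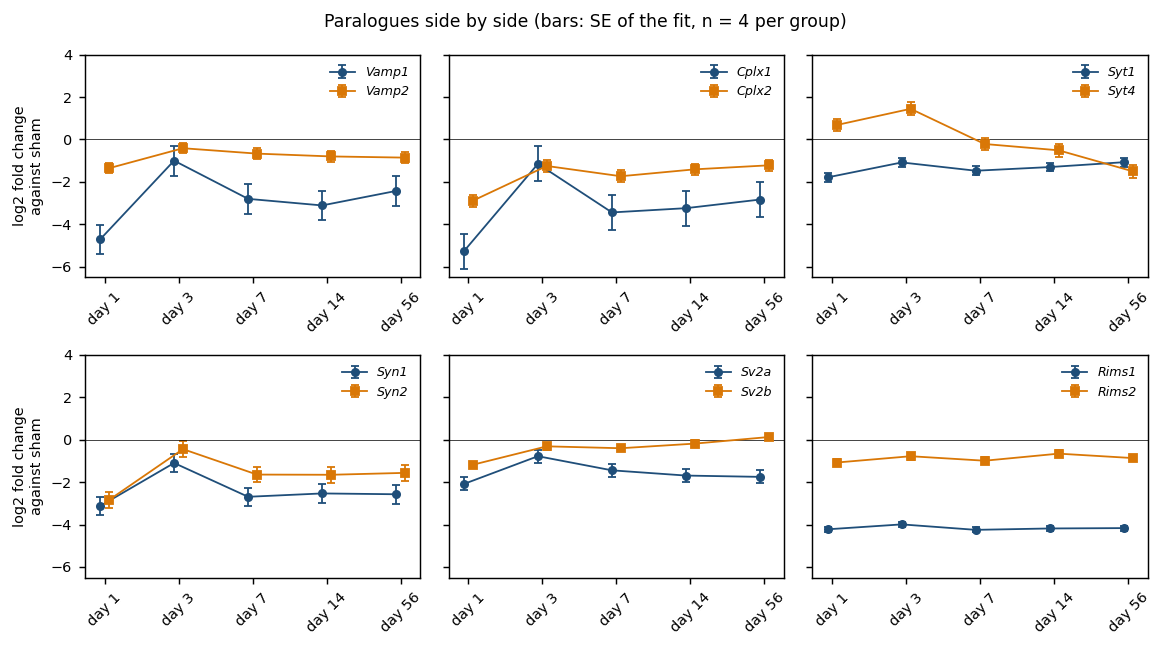
Log2 fold change against sham (points, with the SE of the 6-group fit, 4 arrays per group) for 6 pairs of paralogues over the 5 time points. Vamp1 lies below Vamp2 and Rims1 below Rims2 on every day, Cplx1 and Cplx2 meet on day 3, and Syt4 starts at 0.68 and 1.44 and ends at -1.50 on day 56.

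Of 124 further genes of vesicle release and of its paralogues outside neurons, 104 were on the array. Other SNARE, chaperone and priming genes (14 measured) were lower in 9 cases and higher in 1 on day 1, and lower in 3, 9, 8 and 8 on days 3, 7, 14 and 56. Unc13c, a priming factor, and Napb, the neuronal SNAP cofactor of NSF, fell by 4.68 and 4.66 on the log2 scale on day 1. Stxbp5 (tomosyn), which holds syntaxin back, was the gene that rose (0.54). Of 11 other synaptotagmins, 5, 5, 9, 4 and 4 were lower at the 5 time points and 0 were higher, with Syt3 (-2.72) and Syt11 (-2.21) the deepest on day 1.

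Among 17 other vesicle membrane, transporter and proton pump genes, 8 were lower and 2 higher on day 1 and 9 were lower on day 56. Slc32a1, the transporter that loads GABA and glycine, fell by 4.93 on the log2 scale on day 1 and was still lower on day 3 (-2.52) and day 56 (-4.46), with means at the control level on days 1, 7, 14 and 56. Its day 3 course thus differed in value from that of the glutamate transporter Slc17a6 (0.17), a difference that was not tested. Slc6a17, a vesicular amino acid transporter of neurons, fell by 4.07 on the log2 scale on day 1 and read 0.25 on day 3. Scamp5 (1.34) and the proton pump subunit Atp6v0c (0.74) rose on day 1.

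Of 19 other active zone and adhesion genes, 9 were lower and 2 higher on day 1, with Apba2 (-2.38) and Ptprd (-2.13) lowest and Erc1 (0.61) and Ppfia1 (0.40) called higher. The 21 other endocytosis genes were split, with 11 lower and 8 higher on day 1. The neuronal genes Pacsin1 (-4.08) and Aak1 (-5.72) were among the lower ones, and the ubiquitous clathrin adaptor subunit Ap2s1 (1.85) and Sh3gl1 (1.27), the endophilin of many tissues, were among the higher ones.

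The 22 broadly expressed paralogues of the release machinery, which serve membrane traffic in most cells, were higher in 13 cases and lower in 3 on day 1, higher in 10, 12, 12 and 10 at the later time points, and lower there in 5, 1, 2 and 3. Rab27a (2.55), a GTPase of lysosome-related organelles, and Stxbp2 (2.34), the Munc18 of blood cells and epithelia, led the rises, and Stxbp3 (-0.76) and Sypl1 (-0.65) the falls. The list's median was 0.75 on day 1, 0.32 on day 3 and 0.24 on day 56.

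The 13 microglia and macrophage markers were higher in 11, 8, 12, 12 and 12 cases over the same days, with Cd68 up by 8.996 and Cd14 by 8.32 on day 1. Their part in the rises of the broadly expressed paralogues and of Syngr1 was not tested.

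Of 17 postsynaptic scaffold genes, 8 were lower and 1 higher on day 1, 4 lower on day 3, 13 on day 7, 8 on day 14 and 7 on day 56. Camk2b (-4.56) and Shank1 (-4.42) fell about as far on day 1 as the most reduced members, although the list's median was -0.20. Motor neuron markers (6 measured) were lower in 3, 2, 5, 3 and 3 cases, and inhibitory neuron markers (9 measured) in 5, 1, 8, 4 and 3. Chodl, a motor neuron gene, fell by 8.68 and Pvalb, of a class of interneurons and sensory neurons, by 6.22 on the log2 scale on day 1.

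Astrocyte markers (11 measured) were lower in 9, 6, 7, 3 and 2 cases, led by Gjb6 (-4.39) and Slc7a10 (-3.92) on day 1, and their median was -2.33 on day 1, -0.87 on day 3 and -0.08 on day 56. Oligodendrocyte markers (10 measured) were lower in 10, 6, 4, 5 and 7 cases, with Ermn (-2.70) and Mal (-2.29) lowest on day 1. The members' median on day 56 was -1.66. Neutrophil markers (6 measured) were higher in 2 on days 1 and 3. Fibroblast markers (8 measured) were higher in 5 on day 1, with Postn up by 7.44. Schwann cell markers (6 measured) were higher in 2 on day 1 and 3 on day 56. Endothelial markers (8 measured) were higher in 3 on day 1 and red cell markers (3 measured) in 2. Of all genes, 28.9% were higher on day 1, 23.7% on day 3 and 16.1% on day 56. The Schwann cell marker Mpzl2 (-2.23) and the endothelial marker Flt1 (-0.95) were lower on day 1.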

How the data were processed

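The deposited series table holds log2 values that the authors made from the scanned arrays with GCRMA, a background correction, normalization and summary by ProbeSet. The submitters' processing notes name the affy package (version 1.12.2) and GCRMA. The methods state that the rats of a time point were pre-processed apart from the rest. The table has 31099 ProbeSets, of which 20832 have 1 gene symbol in the platform annotation, 436 have several and 9831 have none.

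Here limma 3.58.1 in R 4.3.3 was fitted to all 24 arrays in 6 groups (lmFit, contrasts.fit and eBayes, 18 residual degrees of freedom), and p-values were adjusted by the Benjamini-Hochberg method over the 20832 ProbeSets with 1 symbol. Counts over all genes use 1 ProbeSet per gene (14218). All members are named, and from each other list up to 2 rises and 2 falls that were largest on day 1 and past the threshold, with other genes given as reference values. The members and lists were chosen with earlier results of these data known. Rats are the replicates, and their number limits the precision. Paralogue pairs were tested by exact permutation. The fit was tested on simulated data. Alternatives were fits of 2 groups, other moderation, quantile normalization, median centring, a filter on dim ProbeSets, the mean of a gene's ProbeSets, a replicate block and leaving out arrays.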

Additional observations from a re-analysis of the deposited data

Results flagged for a closer look

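The 4 rats of each group were searched, member by member, for a rat set apart from the other 3 by more than Dixon's critical ratio for groups of 4. Of 204 such sets, 23 held a rat of this kind, where chance flags about 1 in 20. Day 14 replicate 3 accounted for 12 of the 23, with log2 values of 8.57 for Vamp1, 9.18 for Nsf, 6.38 for Syp, 3.45 for Syngr3, 6.32 for Syn1, 6.70 for Syn2, 8.99 for Rab3a, 7.35 for Sncb, 3.95 for Bsn, 3.35 for Slc17a6, 6.397 for Nrxn3 and 3.53 for Nlgn1. Each of these was below the other 3 rats of its day.

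Other measured members had such a rat as follows. Vamp1 in sham replicate 3 was 14.35, above the other 3 rats at 13.88 to 13.92. Nsf in day 7 replicate 3 was 11.43, above the other 3 rats at 10.06 to 10.27. Syt1 in day 3 replicate 3 was 6.47, above the other 3 rats at 5.37 to 5.42. Syt1 in day 7 replicate 2 was 4.97, below the other 3 rats at 5.36 to 5.38. Sv2a in day 1 replicate 4 was 7.84, below the other 3 rats at 8.67 to 8.80. Sv2a in day 3 replicate 2 was 10.23, above the other 3 rats at 9.66 to 9.73.

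The rest were in members near the control level or were small in size. Stx1a in day 7 replicate 3 was 2.69, above the other 3 rats at 2.605 to 2.61. Unc13a in day 1 replicate 2 was 3.59, below the other 3 rats at 3.64 to 3.65. Rab3c in day 14 replicate 1 was 3.19, above the other 3 rats at 2.96 to 3.00. Rims1 in day 3 replicate 2 was 2.93, above the other 3 rats at 2.15 to 2.24. Slc17a7 in day 7 replicate 1 was 2.31, below the other 3 rats at 2.35 to 2.36.

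The members' changes from sham also differed between time points when the time points were contrasted directly by limma. Between day 1 and day 3, 24 members differed, between day 3 and day 7, 14 did, between day 7 and day 14, 3 did, between day 14 and day 56, 0 did (2 at an unadjusted p under 0.05), and between day 1 and day 56, 16 did.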

How the results depend on the processing

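Of 2788 values of single members against sham under the alternatives, 2653 kept their direction and side of the threshold, 80 lost the call (8 of them because the filter on dim ProbeSets removed the gene), 55 gained it and 0 reversed, where a change of sign between values that both missed the threshold was not counted. The counts of members called against sham stayed within 1.5 times of the reported ones under all alternatives but the fit of 2 groups, which called 23 members on day 3 in place of 12. Leaving out arrays in turn gave 28 to 28 on day 1, 11 to 14 on day 3, 26 to 29 on day 7, 24 to 27 on day 14 and 23 to 26 on day 56. For steps between days it gave 24 to 26 from day 1 to day 3, 7 to 20 from day 3 to day 7 (14 reported), 1 to 3 from day 7 to day 14, 0 to 0 from day 14 to day 56 and 9 to 17 from day 1 to day 56 (16 reported), 4 to 17 for the course down, up and down (10 reported), and 9 to 13 for members lower at all 5 time points. The count of 1 from day 7 to day 14 came without day 7 replicate 1. The 3 members that differed between day 7 and day 14 became 6 in the fit of 2 groups. The count was 0 after quantile normalization, with a group mean of at least 5, or without day 7 replicates 2 and 3 and day 14 replicate 3. Leaving out those 3 arrays gave 17 members for the course. The cause of these shifts was not tested.

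Median centring moved the median of all genes by -0.12, -0.08, -0.14, -0.08 and -0.10 at the 5 time points, to -0.11, -0.13, -0.19, -0.05 and -0.11. The share of higher calls among all genes called moved with it from 58.6% to 42.2% on day 1, from 58.7% to 35.9% on day 3, from 43.9% to 29.0% on day 7 and from 50.3% to 38.1% on day 56. Members lower and higher were then 30 and 1, 16 and 1, 32 and 1, 26 and 1, and 29 and 0. Quantile normalization gave 12 lower and 2 higher on day 3. Paralogue pairs called were 42 to 43 by the exact test and 48 by limma.

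With the replicate block, 28, 11, 29, 27 and 25 members were called against sham, 24, 13, 2, 0 and 16 between days, 9 for the course and 9 at all 5 time points, and 44 pairs by limma. The numbers do not pair the rats: same-numbered arrays deviated from their group means with correlations of -0.711 to 0.479 (median 0.0104), and 6 of 24 arrays were closest to their own number. A change that starts or ends near the control level of 2.75 to 3.06 has no exact size.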
